A study of Arabidopsis thaliana with 8 samples.

Results

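The transcript of BABY BOOM (BBM, locus AT5G17430) was followed across 8 ATH1 arrays of Arabidopsis thaliana seedlings. It was chosen by name, with earlier results of these data known, and it has 1 probe set. It is 1 gene of 13286 that have a probe set annotated to a single gene. The arrays covered 4 genotypes with 2 arrays each. These were Columbia (Col-0) wild type, plants with the T-DNA insertion clf-28, plants with the T-DNA insertion swn-7, and clf-28 swn-7 plants with both. Whole seedlings were bulked for each sample. Seeds of every genotype were stratified for 3 days, and plants grew in tissue culture on agar plates. Wild type, clf-28 and swn-7 were taken after 10 days and the double mutant after 12 days, so its genotype effect and its greater age cannot be told apart. All samples carry growth stage 1.03 in the labels. Whether both samples of a genotype were grown separately is not stated, so p-values cover the spread of these samples alone, and it may be technical.

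BBM encodes a transcription factor with paired AP2 DNA-binding domains of the AINTEGUMENTA-LIKE (AIL, or PLETHORA) group. It is transcribed in embryos and in the root meristem, and forced expression makes seedlings form embryos on their leaves and shoot tips. CURLY LEAF (CLF) and SWINGER (SWN) are alternative catalytic subunits of Polycomb repressive complex 2, which places the H3K27me3 mark on genes that are kept silent in a given tissue. Embryo and seed genes are a known class of targets in seedlings.

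BBM was detected in the double mutant and in no other genotype. The values are MAS5 signals, in arbitrary linear units. Signals at or below a floor of 10.0, set at 10% of the trimmed mean of all probe sets, were treated as not distinguishable from background. In the double mutant the BBM signal was 66.8 on replicate 1 and 54.6 on replicate 2, with a mean of 60.7 ± 8.61 (SD, n = 2). In wild type it was 0.887 and 0.588. In clf-28 it was 0.461 and 2.02, and in swn-7 it was 0.660 and 0.260. The double-mutant values both exceeded the floor, the other 6 lay far below it, and the groups did not overlap. The order among wild type, clf-28 and swn-7 cannot be read, because all 6 of their values were below the floor.

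**Figure D1:**
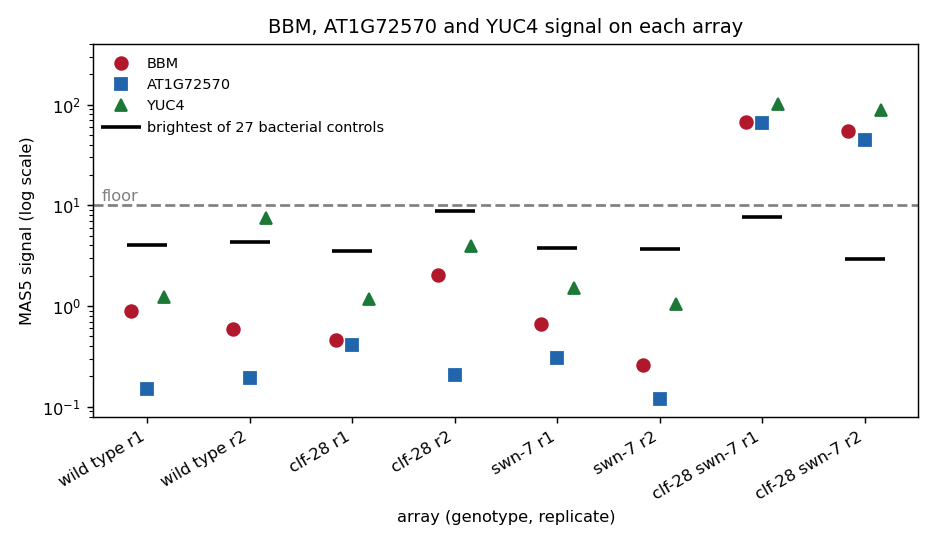
MAS5 signal (log axis) of BBM, AT1G72570 and YUC4 on each of the 8 arrays, with the brightest of 27 bacterial control probe sets on that array as a black bar and the floor as a dashed line. BBM stood at 66.8 and 54.6 on the clf-28 swn-7 arrays and at 2.02 or less on the other 6, where it was never brighter than the brightest bacterial control.

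The array itself gives a measure of background for BBM. Of its 64 control probe sets, 27 for Bacillus transcripts that plants lack were used, and the other controls were left out of this measure. The highest signal of the 27 was between 2.97 and 8.74 per array. On the 6 arrays of wild type and the single mutants, between 6 and 18 of these 27 were at least as bright as BBM. On both double-mutant arrays 0 of 27 were.

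Tested with limma on floored log2 signals over all 8 arrays, BBM was at least 6.04-fold higher in the double mutant than in wild type (log2 2.59, SE 0.16, limma adjusted p = 2.43e-05, 2 arrays per genotype). The fold is a lower bound because both wild-type arrays were at the floor. BBM was fitted only because both double-mutant arrays exceeded the floor, so the direction of its change was fixed by the filter. The floor also removed the spread of BBM within wild type, clf-28 and swn-7. Its SE therefore rests on the 2 double-mutant arrays and on the spread limma borrows from all probe sets. The same log2 difference and bound held against clf-28 (limma adjusted p = 2.71e-05) and against swn-7 (limma adjusted p = 2.34e-05), since those genotypes were also at the floor. The 3 comparisons share the double-mutant arrays and are not independent. A call by itself was common here. Adjusted p-values below 0.05 were reached by 46.7% of the 17332 probe sets tested against wild type, by 45% against clf-28 and by 45.4% against swn-7. With 25.2% of all probe sets higher and 21.5% lower than in wild type, the rise of BBM was 1 of 4369. An exact permutation test of the double-mutant arrays against the other 6 gave a two-sided p of 0.0714, taken as 2 times the one-sided p. Counted in that way, it is the smallest that 28 ways of choosing 2 arrays allow. In whole seedlings, more cells with the transcript and more transcript per cell cannot be told apart.

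Loss of CLF alone or of SWN alone gave no measured BBM signal. The log2 change was 0 in clf-28 and 0 in swn-7, both from the floor to the floor. In these comparisons 0.121% and 0% of probe sets were called by limma, while 2162 and 2117 had an unadjusted p below 0.05. The interaction, in which the changes of both single mutants are subtracted from that of the double mutant, was 2.59 for BBM (SE 0.23, limma adjusted p = 2.85e-04). It passed in 31% of probe sets. For a gene at the floor in 3 genotypes the interaction equals the change from wild type and depends on the floor in the same way.

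The size of the BBM change depended on where the floor was set, and its call did not in any of the 20 alternative settings that could be fitted. Against wild type the log2 change was 1.59 with a floor at 20% of the trimmed mean, 3.59 at 5% and 6.39 with no floor (SE 1.20). The last value divides by signals that bacterial controls also reach. With each array left out in turn the change lay between 2.45 and 2.74. Only leaving out a double-mutant array could move it, because all other BBM values were at the floor. The SE fell from 0.16 to 0.04 without either double-mutant array, since the floored BBM values then had no spread within any genotype. Those fits therefore say little about the spread of BBM.

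**Figure D2:**
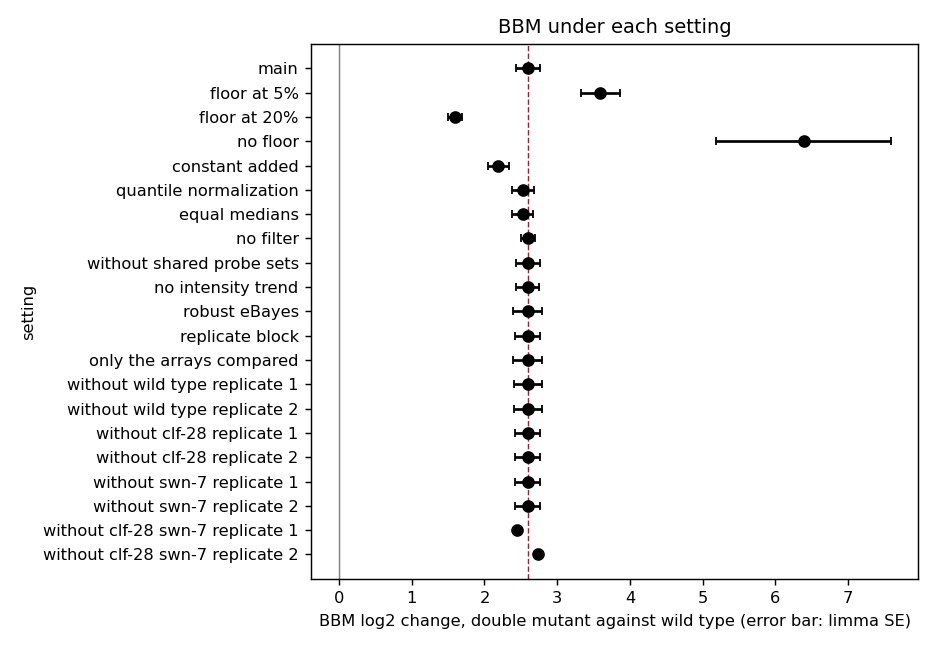
BBM log2 change in the double mutant against wild type (points) with limma's SE (bars) under the reported setting and 20 alternatives; the dashed line marks the reported 2.59. Only the treatment of dim signals moved the value by much, from 1.59 with the higher floor to 6.39 with none.

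Among the transcripts of the double mutant, BBM was of middling brightness. On replicate 1, 9128 of 22746 probe sets were brighter, and 44.0% of those above the floor were dimmer. On replicate 2, 9835 were brighter, and 38.3% of those above the floor were dimmer. Probe sets differ in how well they bind their target, so this is a rank of brightness and not an order of transcript amounts. BBM belonged to 426 probe sets, 2.46% of those tested, that exceeded the floor in both samples of the double mutant and nowhere else. In that group the mean double-mutant signal had a median of 31.7 and quartiles of 17.03 and 91.4, and 135 probe sets were brighter than BBM. The arrays of the double mutant differed by 0.29 on the log2 scale for BBM, higher on replicate 1. Of the 426 probe sets, 301 were higher on replicate 1, with a median difference of 0.19. Over all tested probe sets the absolute difference had a median of 0.23, and 58.4% differed by less than BBM.

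**Figure D3:**
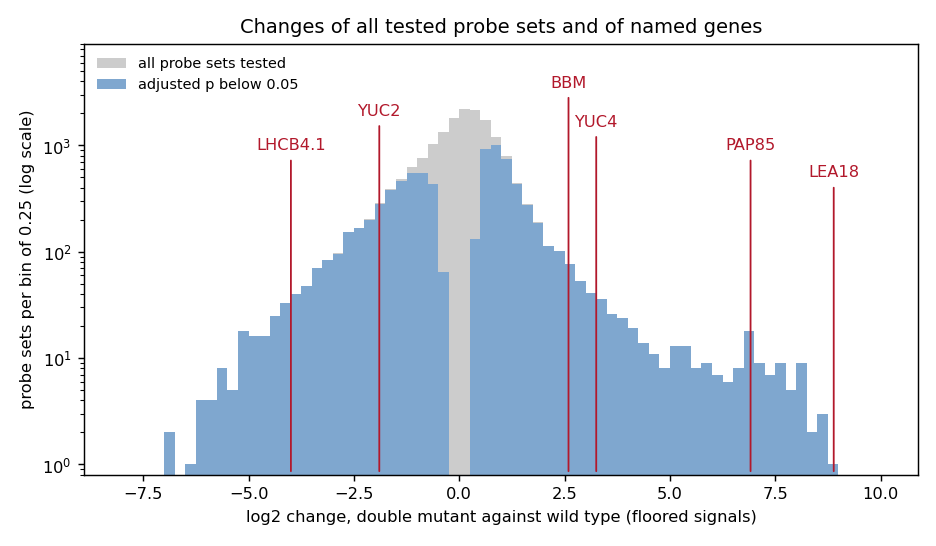
Number of probe sets (log axis) by log2 change of floored signals in the double mutant against wild type, for all 17332 tested and for those with an adjusted p below 0.05, with 6 named genes marked by lines. BBM at 2.59 lay on the upper shoulder and the seed genes PAP85 at 6.92 and LEA18 at 8.89 near the far end, while LHCB4.1 lay at -3.995.

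The closest relatives of BBM form the AIL group, which acts in meristems, organ growth and embryos. Of 8 listed members only BBM and AT1G72570 had a probe set annotated to 1 gene, and both were called higher, beside 25.2% of all probe sets. Both were fitted only because the 2 double-mutant arrays exceeded the floor, so neither could have been called lower. BBM and the list were also chosen with earlier results known, so this count is no evidence about the group. AT1G72570 was listed by its locus as an AIL gene, and the annotation used here gives it no other name. Its signal was 65.0 and 44.2 in the double mutant and between 0.119 and 0.409 on the other 6 arrays. It therefore showed the same separation as BBM, with no overlap. It was at least 5.36-fold higher than wild type (log2 2.42, SE 0.20, limma adjusted p = 9.34e-05). The other 6 listed members, PLT1, PLT2, AIL5, AIL6, AIL7 and ANT, were not analysed here.

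The 2 measured AP2 genes outside the AIL group did not follow BBM. SMZ, a repressor of flowering, had signals of 52.9 and 34.5 in wild type and of 19.1 and 19.6 in the double mutant. It fell 2.21-fold (log2 -1.15, SE 0.24, limma adjusted p = 0.00633). The single mutants lay between, at 29.6 and 29.7 in clf-28 and 27.5 and 26.7 in swn-7. The double mutant was not called lower than clf-28 (limma adjusted p = 0.0687) or swn-7 (limma adjusted p = 0.131), and the interaction was 0.04. SNZ, a close relative of SMZ, was lower than in wild type by at least 2.01-fold (log2 -1.004, SE 0.24, limma adjusted p = 0.0119), and both double-mutant arrays were at the floor. The double mutant was called lower than swn-7 for SNZ (log2 -0.98, limma adjusted p = 0.0134). It was not called lower than clf-28 (log2 -0.26, limma adjusted p = 0.416), where 1 array was also at the floor. The SNZ interaction was -0.24 and not called. For SNZ against wild type the limma adjusted p rose to 0.378 when the floor was doubled to 20% and to 0.0507 when it was removed. It rose to 0.0575 without wild type replicate 2, and to 0.0827 or 0.0755 without replicate 1 or 2 of the double mutant.

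Of 15 listed regulators of embryo identity and seed maturation that act beside BBM, AGL18 and BZIP53 were measured, and 0 of 2 were called by limma in the double mutant against wild type, where 46.7% of all probe sets were. AGL18, a MADS-box factor related to AGL15, had signals of 24.01 and 21.4 in wild type and of 34.2 and 26.9 in the double mutant (log2 0.42, SE 0.20, limma adjusted p = 0.124, unadjusted p = 0.0722). It passed without double-mutant replicate 2 (limma adjusted p = 0.0300). BZIP53, a bZIP factor that activates seed storage genes, had signals of 627 and 445 in wild type and of 443 and 414 in the double mutant (log2 -0.30, SE 0.20, limma adjusted p = 0.248, unadjusted p = 0.170). Its transcript was above the floor on all 8 arrays, unlike that of BBM. LEC1, LEC2, FUS3, ABI3, AGL15 and the other listed regulators were not analysed here, nor was any of the 12 listed WOX genes.

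Of the 17 listed Polycomb genes and repressors of embryo traits, only AT3G23060 had a probe set annotated to 1 gene. It was listed by its locus and has no other name in the annotation. Its signal was 8.91 and 9.69 in the double mutant and between 0.583 and 1.80 on the other arrays. All 8 values were below the floor, so it was not tested. CLF and SWN themselves were not analysed here, so the arrays were not checked against the mutated genes.

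Auxin made by YUCCA (YUC) flavin monooxygenases accompanies embryo formation. Of 12 listed auxin synthesis genes, 4 had a probe set annotated to 1 gene. YUC4 rose and YUC2 fell in the double mutant. Like BBM, YUC4 was fitted only because both double-mutant arrays exceeded the floor. YUC4 had signals of 102 and 88.8 in the double mutant and between 1.04 and 7.41 elsewhere, the same separation as BBM, and it was at least 9.53-fold higher than wild type (log2 3.25, SE 0.16, limma adjusted p = 8.27e-06). YUC2 had signals of 37.1 and 41.3 in wild type, 38.1 and 34.1 in clf-28 and 39.6 and 41.6 in swn-7. In the double mutant it was 11.05 and 7.55. It was lower by at least 3.72-fold (log2 -1.90, SE 0.19, limma adjusted p = 2.01e-04). YUC6 and YUC11 were above the floor on at most 1 array and were not tested.

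The storage, oil-body and late embryogenesis abundant (LEA) genes of maturing seeds stand downstream of embryo regulators. Of 28 listed, 11 were measured, and 11 of 11 were called higher in the double mutant against wild type, beside 25.2% of all probe sets. Their median log2 change was 7.43, beside 0.11 over all probe sets tested. Their rise was known when they were listed, so this count is no independent support for a link to BBM. The signal of LEA18 was 4502 and 4994 in the double mutant and at most 5.10 elsewhere. PAP85, a vicilin-like storage protein gene, rose from 19.0 and 57.9 in wild type to 4552 and 3518. BETA-VPE, the seed form of the vacuolar processing enzyme, rose from 48.6 and 60.0 to 2783 and 2519. DELTA-VPE, its seed-coat relative, was the measured seed gene above the floor on both clf-28 arrays and neither wild-type array, at 23.2 and 16.6 against 1.36 and 1.02. The difference missed the threshold (log2 0.97, SE 0.32, limma adjusted p = 0.318). The summed signal of the 11 genes was 34018 and 32547 in the double mutant and between 88.3 and 272 on the other 6 arrays. The other measured seed genes were OLEO3, LEA4-5, AtLEA4-1, AT3G15670, AT3G01570, AT2G28490 and AT1G03890. Wild type replicate 2 had the highest sum of the arrays outside the double mutant. Its BBM signal was below the floor, so the sum and BBM cannot be compared there.

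**Figure D4:**
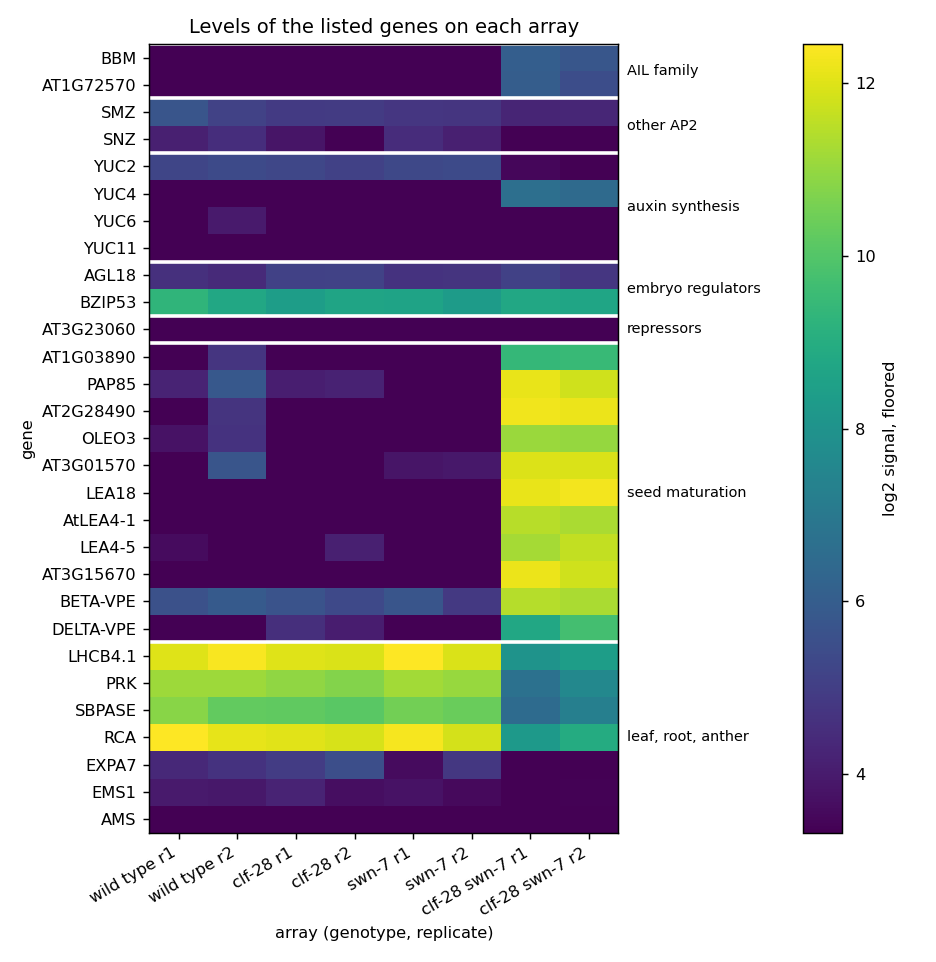
Log2 signal after the floor (colour) for each listed gene with a probe set (rows, grouped by list) on the 8 arrays (columns); the darkest colour is the floor. BBM and AT1G72570 were at the floor except in the double mutant, where all 11 seed maturation genes were bright and the 4 leaf genes LHCB4.1, PRK, SBPASE and RCA were dimmer than on every other array.

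Leaf genes were lower in the double mutant, the genotype with BBM signal. The summed signal of the leaf genes LHCB4.1, PRK, SBPASE and RCA was between 10599 and 14501 on the 6 arrays without BBM signal. It was 762 on double-mutant replicate 1 and 1173 on replicate 2. All 4 were called lower against wild type, beside 21.5% of all probe sets. They were listed with earlier results known, so this count is no independent support for a link to BBM. Each was lower on replicate 1 than on replicate 2, and a difference between 2 arrays cannot relate them to the BBM level. EXPA7, a root-hair expansin gene, was 20.7 and 25.4 in wild type and 0.940 and 4.48 in the double mutant, and the anther gene AMS was below the floor on all arrays. EMS1, the other anther gene, was 15.9 and 15.0 in wild type and 10.1 and 10.4 in the double mutant, and its difference missed the threshold (limma adjusted p = 0.0542). EXPA7 was called lower (limma adjusted p = 0.0395), and lost the call with the floor at 20% (0.611) and with no filter (0.116). It also lost it without either wild-type array (0.0851 and 0.148), either clf-28 array (0.0572 and 0.0565) or either double-mutant array (0.194 and 0.181). Of the 10 listed markers 7 had a probe set annotated to 1 gene. The part of tissue composition in the BBM value was not tested.

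The genes beside BBM on chromosome 5 were called higher about as often as genes elsewhere. Of the 5 nearest genes with a probe set on each side, 8 were tested and 2 were called higher in the double mutant against wild type, a share near the 25.2% of all probe sets. AT5G17440, the next gene in the RefSeq order, had signals of 155 and 122 in the double mutant and between 72.5 and 84.7 on the other 6 arrays. It rose 1.70-fold over wild type (log2 0.76, SE 0.18, limma adjusted p = 0.0101) and, unlike BBM, was well above the floor in every genotype. AT5G17350 rose 3.12-fold (log2 1.64, SE 0.51, limma adjusted p = 0.0331), from 44.4 and 15.3 to 57.1 and 116. That call was lost in 7 of 8 fits that left out an array, with limma adjusted p from 0.0566 to 0.244. The log2 change was 0.87 without wild type replicate 2 and 1.13 without double-mutant replicate 2. It was 2.41 without wild type replicate 1, where the call held (limma adjusted p = 0.00698). Leaving out replicate 1 of the double mutant gave 2.16. AT5G17410, the nearest measured gene on the other side, missed the threshold (log2 0.17, SE 0.20, limma adjusted p = 0.517). The remaining 5 tested neighbours had log2 changes from 0.05 to 0.47, and AT5G17360 and AT5G17470 were too dim to be tested.

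**Figure D5:**
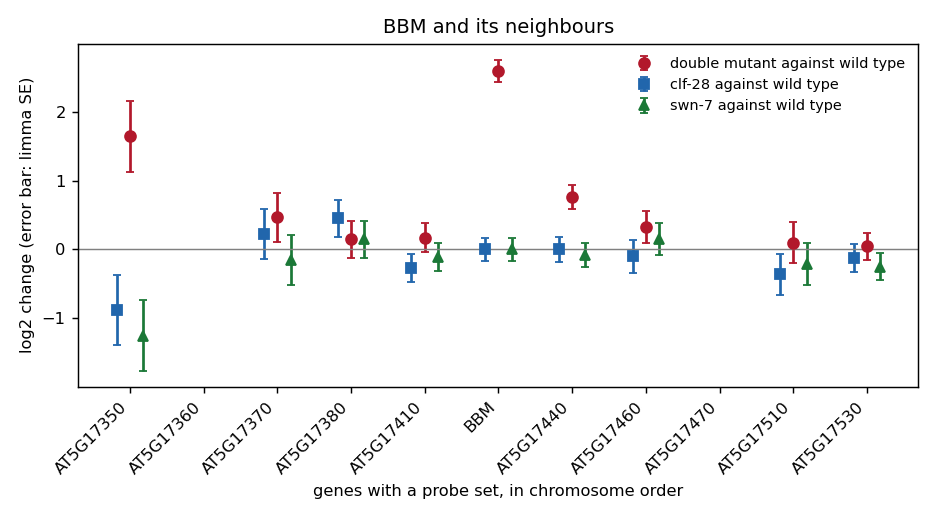
Log2 change against wild type (points, with limma's SE as bars) of BBM and of the genes with a probe set around it in chromosome order, for the double mutant, clf-28 and swn-7. BBM stood at 2.59 in the double mutant, with AT5G17350 at 1.64 and AT5G17440 at 0.76; genes with no point were too dim to be tested.

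The genes most like BBM over the 8 arrays, by Pearson correlation of floored log2 signals, were chosen for being above the floor where BBM was, so their rise in the double mutant follows from the choice and is given as a description. The 10 with the highest correlation were AT1G60970, AT1G07740, AT5G55750, AT1G12130, AT3G05260, AT5G52330, AT1G27461, AT3G19920, AT3G58210 and AT4G25410, with correlations from 0.999981 to 1.000000. None of them has a name other than its locus in the annotation used here. AT1G60970 was the nearest, with signals of 70.5 and 57.2 in the double mutant and at most 3.17 elsewhere. AT5G52330 was close to it at 67.8 and 56.0, with at most 6.26 elsewhere. AT1G27461 had the same pattern at a brighter probe set, with 1169 and 685. AT1G07740, in contrast, barely passed the floor, at 12.0 and 11.8 in the double mutant and between 4.56 and 8.12 elsewhere. It was the only one of the 10 not called higher than wild type (log2 0.25, limma adjusted p = 0.126). A high correlation was common, since 386 tested probe sets reached 0.99 with BBM. With 6 arrays at one floor value, the measure turns on the 2 double-mutant arrays alone.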

How the data were processed

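The deposited values are array intensities, 1 MAS5 signal per probe set and array. Per the submitters' processing notes, MAS5 and GCOS were used, with no version given. The 2% trimmed mean was 100.0 on every array, with medians from 36.2 to 42.9 and 69.1% to 71.6% of probe sets above the floor, so no further scaling was applied. The number of arrays limits the precision.

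Signals under 10.0 were raised to that floor before taking log2. Leaving out 64 control probe sets, 17332 of 22746 probe sets above the floor on at least 2 arrays were fitted with limma 3.58.1 in R 4.3.3 (lmFit, then eBayes with an intensity trend, 1 mean per genotype, 4 residual and 3.43 prior degrees of freedom). P-values are two-sided and were adjusted over all fitted probe sets by Benjamini-Hochberg, with a threshold of 0.05. The script was tested on simulated data. A fold against a genotype with an array at the floor is a lower bound.

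Genes were named through the platform annotation and RefSeq (TAIR10.1), which matched 13436 of 13513 probe sets with 1 symbol. Another 503 have several and 8794 are unlisted. A gene said to have a probe set has 1 annotated to it alone, and a gene without may still be on the array. RefSeq gene starts served only to order the genes around BBM. Probe coordinates were not used, since the probes come without a genome build, and no sequences were used. Where a gene has several probe sets, the brightest stands for it. Named genes are BBM, the listed genes with a probe set, the 10 most like BBM and 5 neighbours on each side. BBM and the lists were chosen with earlier results of these data known. Alternatives covered the floor, an added constant of 16, scaling, filters, eBayes, the replicate block, the arrays fitted and each array left out.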

Additional observations from a re-analysis of the deposited data

Results flagged for a closer look

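For 30 of the 43 named genes tested the interaction passed limma's adjusted threshold of 0.05, beside 31% of all probe sets. Most of the 30 were listed with their rise known or picked for likeness to BBM, so the count is no evidence about them. For BBM it was 2.59 on the log2 scale, for AT1G72570 2.42 and for YUC4 3.25, all 3 below the floor outside the double mutant. The AT1G72570 call was lost with no floor (limma adjusted p = 0.0733). YUC2 gave -1.83. Among neighbours of BBM it was 0.84 for AT5G17440 and 3.78 for AT5G17350. The AT5G17350 call was lost in 2 settings, among them a floor at 20% (limma adjusted p = 0.0524). The AT5G17440 interaction was lost in 7 of 8 fits that left out an array and with equal medians (limma adjusted p = 0.0636).

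The seed genes had large positive interactions. They were 9.60 for AT2G28490, 9.57 for PAP85, 9.28 for AT3G01570, 8.89 for LEA18, 8.67 for AT3G15670 and 8.62 for OLEO3. AtLEA4-1 had 8.07, LEA4-5 had 7.85, AT1G03890 had 6.83, BETA-VPE had 6.36 and DELTA-VPE had 4.97.

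The leaf genes had negative ones, at -3.75 for LHCB4.1, -3.70 for PRK, -3.19 for SBPASE and -3.19 for RCA.

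For genes picked as most like BBM, the interaction equals the rise that the choice fixed. AT1G27461 gave 6.48, AT3G19920 gave 5.63, AT3G05260 gave 5.02, AT1G12130 gave 4.35 and AT5G55750 gave 4.13. AT1G60970 gave 2.67, AT5G52330 gave 2.62, AT3G58210 gave 1.498 and AT4G25410 gave 1.09. With no floor the call was lost for AT5G52330, AT3G58210 and AT4G25410 (limma adjusted p = 0.142, 0.056 and 0.215). AT4G25410 also lost it with a floor at 20% (limma adjusted p = 0.335). AT1G07740 gave 0.25 and was not called (limma adjusted p = 0.301).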

How the results depend on the processing

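BBM kept its direction and its call in the double mutant against each other genotype under all 20 alternatives (19 for the interaction), with log2 values from 1.59 to 7.19. With a filter of 4 arrays above the floor it was not tested, which also left 6 seed maturation genes and 1 auxin synthesis gene called. Of the other named genes, 832 of 865 values against wild type kept their side of the threshold, as did 797 of 823 interactions, and 0 reversed. Of the interactions, 15 lost their call. Neighbours called fell from 2 to 1 with a floor at 20%, no filter or only the arrays compared, and were 1 to 2 with 1 array left out. Embryo regulators called were 0 to 1, the 1 being AGL18 without double-mutant replicate 2. Arrays were not paired by replicate number in the main fit. Deviations of same-numbered arrays correlated between -0.08 and 0.22 across probe sets, which cannot decide whether they share a batch. With the replicate block the BBM log2 change stayed 2.59 (limma adjusted p = 9.77e-05).

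Counts over all probe sets moved with single arrays. With 1 array left out, 4997 to 8302 were called against clf-28 and 3274 to 5678 in the interaction, lowest without clf-28 replicate 2 (5024 and 3395 without its replicate 1, 5156 and 3556 without double-mutant replicate 1). A lone array was assumed to vary like the other genotypes. In clf-28 against wild type they were 2 (without clf-28 replicate 2) to 584 (without wild type replicate 2), 41 with a constant added and 0 with only the arrays compared. In swn-7 they were 0 to 806 (without wild type replicate 2, and 15 without replicate 1), 8 with a floor at 20% or no filter, 2 with no floor and 1 with the 4-array filter. Scaling to equal medians moved the median log2 change of all probe sets from 0.12 to -0.03 in the interaction and from 0.13 to 0 against swn-7, where BBM remained called.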
